A study of Mus musculus with 15 samples.

Results

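The genes described here encode the receptors, bridging ligands, integrin subunits, kinase and motor protein with which the retinal pigment epithelium (RPE) binds and engulfs shed photoreceptor outer segments. The 10 members were taken by name from the 55421 genes listed in the count tables, namely Mertk, Tyro3, Gas6, Pros1, Mfge8, Itgav, Itgb5, Cd36, Ptk2 and Myo7a. Each symbol matched 1 Ensembl gene, and the rule names genes rather than measured values, although the list was drawn up with earlier results of these data known. RNA was sequenced from posterior eyecups (RPE, choroid and sclera, with the neural retina removed) of mice aged 2.5 months on the C57BL/6J background. The groups were 4 wild-type mice (WT), 6 mice heterozygous for the FUN025 mutation of Tmem135 (FUN025/+) and 5 homozygous mice (FUN025/FUN025). One library was made per mouse from the pooled eyecup tissue of that mouse, mice of both sexes were used and tissue was collected around midday. The mutation is carried by every cell of the animal, no agent was given, and no label gives a library's sex. The comparisons ask whether RNA of this machinery differs by genotype at a young age.

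Photoreceptors renew their light-sensitive outer segments every day, and each RPE cell clears the shed tips in a burst that follows the morning onset of light. Binding depends on the integrin alpha-v beta-5, whose subunits are encoded by Itgav and Itgb5, with the secreted bridging protein MFG-E8 (Mfge8) linking it to phosphatidylserine on the tips. Engulfment depends on the receptor tyrosine kinase MERTK, with GAS6 and protein S (Pros1) as its ligands, and loss of MERTK causes retinal degeneration in rodents and people. TYRO3 is a close relative of MERTK, CD36 is a scavenger receptor, focal adhesion kinase (Ptk2) relays the integrin signal, and myosin VIIa (Myo7a) moves ingested phagosomes within the cell.

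Total counts were 18094977 to 20029919 in WT libraries, 10903183 to 13456349 in FUN025/+ libraries and 11053535 to 15038383 in FUN025/FUN025 libraries. Every WT library was deeper than every mutant library, and no sequencing batch is labelled, so that a batch of WT libraries cannot be told apart from genotype. Levels are in CPM, a gene’s counts scaled by the size of the library after TMM normalization. At these depths 3 counts corresponded to 0.15 to 0.275 CPM, whereas members had 493 to 10211 counts in a library, and all 10 passed the filter on low counts. All 15 RPE markers examined were above 1 CPM in every genotype, with a summed level of 23078 to 26598 CPM in WT, 23020 to 28715 CPM in FUN025/+ and 22891 to 27106 CPM in FUN025/FUN025 libraries, and 0 of them passed in any genotype comparison of edgeR's quasi-likelihood test. Between the mutant genotypes 12 of the 15 differences were nevertheless negative in FUN025/FUN025, with a median of -0.10 log2. The tissue is a mixture, in which fewer cells of a type and less RNA per cell cannot be told apart. Tmem135 itself was 64.0 ± 3.0 CPM in WT (SD, n = 4), 75.0 ± 7.3 CPM in FUN025/+ (n = 6) and 88.3 ± 4.6 CPM in FUN025/FUN025 (n = 5), and rose by 0.23 log2 in FUN025/+ (adjusted p = 0.0248) and by 0.47 log2 in FUN025/FUN025 (adjusted p = 1.48e-04, edgeR).

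The Y-linked gene Ddx3y does not match the study's own list of mice in every group. Libraries with over 100 CPM of Ddx3y numbered 2 of 4 in WT, 3 of 6 in FUN025/+ and 3 of 5 in FUN025/FUN025, and all other libraries were under 2 CPM. That list has as many males in WT and over all mice, but more among FUN025/+ and fewer among FUN025/FUN025 mice. Which source holds the error was not determined, and genotypes are those of the labels throughout. Lipid genes that the study also assayed by qPCR were looked at for this, after their values were seen. Scd1, the stearoyl-CoA desaturase, held 305 to 379 CPM in the 5 libraries labelled FUN025/FUN025 and 74.9 to 111 CPM in the 6 labelled FUN025/+. The labelled mutant genotypes did not overlap for Fasn (188 to 200 CPM against 137 to 170 CPM), Srebf1 (254 to 302 CPM against 155 to 192 CPM) or Acaca (94.0 to 97.2 CPM against 77.7 to 83.4 CPM) either, and overlapped for Srebf2. No library thus lay with the other mutant genotype in Scd1, Fasn, Srebf1 or Acaca. The members were therefore also tested without each of the 9 pairs of 1 FUN025/+ library low in Ddx3y and 1 FUN025/FUN025 library high in it, an alternative chosen after seeing the data. Those values stand beside the results on Itgav and Mfge8, and no other member was called in any of these fits.

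Per exon length, Gas6 was the most abundant member and Ptk2 the least. In TPM, a per-length level scaled to the library and computed here from merged exon lengths, WT eyecups held 560 ± 52 of Gas6 (SD, n = 4), 202 ± 7.1 of Itgb5, 146 ± 13 of Itgav, 113 ± 8.5 of Mertk, 88.2 ± 5.6 of Myo7a, 87.9 ± 3.2 of Mfge8, 79.7 ± 7.0 of Pros1, 41.7 ± 10.4 of Cd36, 27.5 ± 5.8 of Tyro3 and 20.5 ± 1.5 of Ptk2. In this order the ranges of Myo7a and Mfge8, of Mfge8 and Pros1, and of Tyro3 and Ptk2 overlapped over the WT libraries. The TPM level of Gas6 was at or above that of 99.2% of the 18979 genes tested, and that of Ptk2 at or above 57.8%. The order was the same in FUN025/+ libraries, whereas in FUN025/FUN025 libraries Pros1 (79.5 TPM) stood above Mfge8 (75.6 TPM), with overlapping ranges.

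In FUN025/+ eyecups 0 of the 10 members passed an adjusted p of 0.05 against WT in edgeR's quasi-likelihood test, while 13.7% of all genes tested did, and the groups overlapped for all 10, where 10.9% of all genes did not overlap. Ptk2 had an unadjusted p under 0.05 (1 member, 10%), as did 28.8% of all genes, and the lowest adjusted p was 0.154. DESeq2 called 0 members, against 15.7% of all genes. The fitted folds of the members lay between 0.931 and 1.12, and the 95% intervals of the log2 differences lay between -0.23 and 0.44. In FUN025/FUN025 eyecups 2 members were lower than in WT, Itgav and Mfge8, and 0 were higher, against 7.02% of all genes called lower and 14% called in either direction. The same 2 members were those whose FUN025/FUN025 and WT values did not overlap, as was the case for 14.8% of all genes. Between the mutant genotypes 1 member differed, Itgav, where 0.522% of all genes tested were called, 0.195% called lower, and 1.12% did not overlap. The median log2 difference of the members was 0.07 in FUN025/+ and -0.01 in FUN025/FUN025 relative to WT, where that of all genes was -0.002 and -0.007. Both comparisons with WT use the same 4 WT mice.

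**Figure D1:**
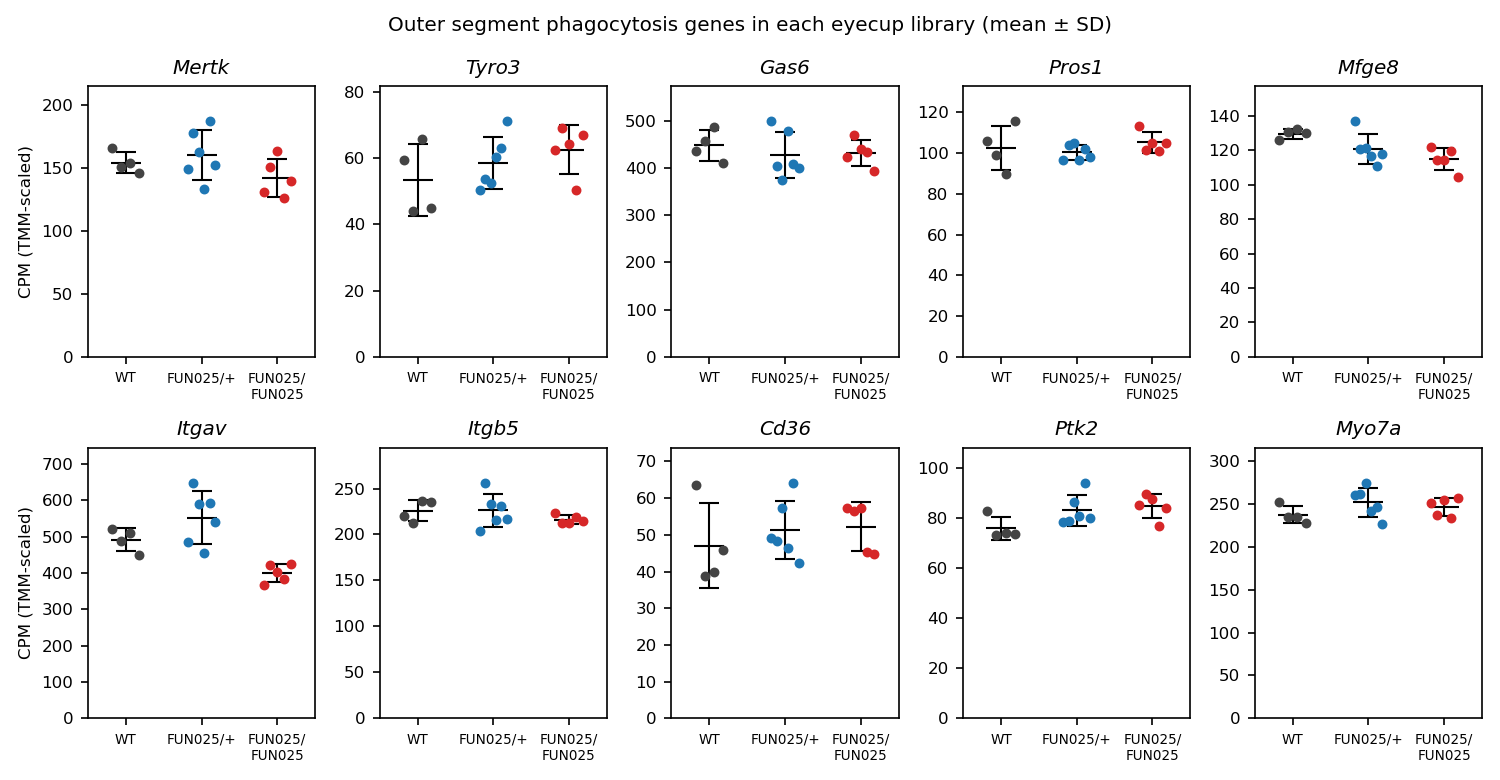
Level of each of the 10 genes in CPM (vertical axis, from 0) in every eyecup library, by genotype. Points are mice, and bars give the mean and SD of 4 WT, 6 FUN025/+ and 5 FUN025/FUN025 mice. The 5 FUN025/FUN025 libraries lie below all other libraries for Itgav and below all WT libraries for Mfge8, while the genotypes overlap for the other genes.

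**Figure D2:**
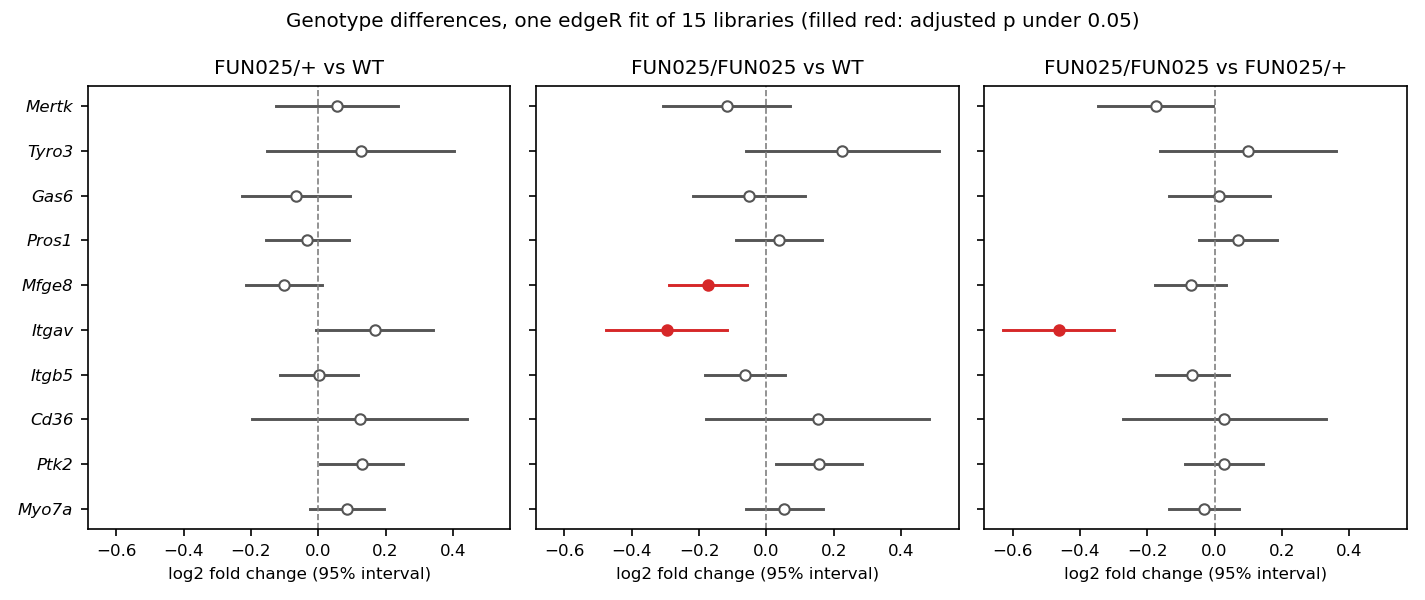
Log2 fold change of each gene (horizontal axis) with its 95% interval in the 3 genotype comparisons, from one edgeR fit of 15 libraries. Filled red points passed an adjusted p of 0.05: Mfge8 and Itgav for FUN025/FUN025 relative to WT, Itgav for FUN025/FUN025 relative to FUN025/+, and no gene for FUN025/+ relative to WT.

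Itgav, which encodes the integrin alpha-v chain (ENSMUSG00000027087, GRCm38 chromosome 2, 83724397 to 83806916, plus strand), fell in homozygotes relative to both other genotypes. WT libraries held 520, 488, 510 and 448 CPM. FUN025/FUN025 libraries held 368, 423, 402, 384 and 426 CPM. The 6 FUN025/+ libraries spanned 456 to 648 CPM, with a median of 565 CPM. All 5 homozygous libraries were thus below the lowest of the other 10, and 4 of 6 heterozygous libraries were above the highest WT library. Relative to FUN025/+, Itgav fell by 0.46 log2 in FUN025/FUN025 (SE 0.078, 95% interval -0.63 to -0.30, adjusted p = 0.00512, edgeR), a change of -27.5%. Relative to WT it fell by 0.30 log2 (SE 0.086, adjusted p = 0.0281), a change of -18.5%. In FUN025/+ libraries the difference from WT was 0.17 log2 (SE 0.083, adjusted p = 0.191). The heterozygous level lay 0.32 log2 above the midpoint of WT and FUN025/FUN025 (SE 0.067, adjusted p = 0.0176), a contrast in which 1.95% of all genes were called, 1.25% higher, and no other member was. The slope per mutant allele was -0.16 log2 (adjusted p = 0.134 with limma).

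The fall of Itgav against FUN025/+ passed the threshold in all 15 fits that left out 1 library, with values from -0.51 to -0.41. Against WT the values ran from -0.33 to -0.26 and 10 of 15 such fits passed, the adjusted p being 0.0676, 0.0586 and 0.0766 without WT replicates 1, 2 and 3, and 0.0783 and 0.0628 without FUN025/FUN025 replicates 1 and 4. With protein-coding genes alone the call against WT was also lost (-0.27 log2, adjusted p = 0.0506). The midpoint contrast was lost without FUN025/+ replicate 2, 3 or 5, with an adjusted p of up to 0.0557. Without the pairs of libraries chosen by Ddx3y, Itgav against FUN025/+ passed in 8 of 9 fits (-0.52 to -0.41 log2) and against WT in 8 of 9 (-0.32 to -0.29 log2), and it missed both without FUN025/+ replicate 3 and FUN025/FUN025 replicate 3, with adjusted p of 0.0588 and 0.0618. The midpoint contrast passed in 3 of 9, with values of 0.27 to 0.36 log2 and an adjusted p of up to 0.0864. All 11 endothelial markers were above 1 CPM, and their median sum was lowest in FUN025/FUN025 libraries. The sum was 1236 to 1444 CPM in WT, 984 to 1337 CPM in FUN025/+ and 920 to 1112 CPM in FUN025/FUN025 libraries. In FUN025/FUN025 relative to WT 7 of 11 were called lower, against 7.02% of all genes. In FUN025/+, where the difference of Itgav from WT was positive, 4 of 11 were called lower, against 1255 of the 18979 genes tested. Between the mutant genotypes 0 of 11 were called, beside 0.522% of all genes, and the median log2 difference of the 11 was -0.15. Marker levels used as covariates were the mean log2 CPM of a list, not its sum. The endothelial covariate was an alternative chosen after seeing the data. With it the log2 difference of Itgav was -0.41 against FUN025/+ (adjusted p = 0.0865) and -0.18 against WT (adjusted p = 0.501). The endothelial sums of WT and FUN025/FUN025 libraries did not overlap, so that endothelial level and genotype cannot be told apart between them. Striated muscle markers (12 of 12 above 1 CPM) summed to 4757 to 8474 CPM in WT, 2593 to 6379 CPM in FUN025/+ and 3886 to 4766 CPM in FUN025/FUN025 libraries. Photoreceptor markers (14 of 15 above 1 CPM, all but Guca1a) summed to 374 to 2680 CPM, 194 to 829 CPM and 193 to 543 CPM. With the muscle and photoreceptor levels as covariates the difference of Itgav from WT was larger but not called, at -0.39 log2 (adjusted p = 0.202), and that from FUN025/+ was -0.45 (adjusted p = 0.0122). Of the 15 RPE markers, 5 had an unadjusted p under 0.05 between the mutant genotypes (33.3%, against 6.23% of all genes), and edgeR and DESeq2 called 0. Lower in FUN025/FUN025 among these were Rpe65, the visual cycle isomerase, at -0.32 log2 (adjusted p = 0.343), Rgr, an RPE opsin, at -0.29 log2 (adjusted p = 0.440), and the visual cycle genes Rlbp1 and Rdh5 at -0.21 and -0.19 log2 (adjusted p = 0.692 and 0.747). Ttr, the carrier of thyroxine and retinol-binding protein, ran the other way at 0.25 log2 (adjusted p = 0.509). With the RPE marker level as a covariate Itgav passed in both comparisons, at -0.27 against WT (adjusted p = 0.0113) and -0.37 against FUN025/+ (adjusted p = 0.00704). The shares of all genes called with the RPE or the endothelial covariate are not given here.

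Itgb5, the beta-5 partner (ENSMUSG00000022817, chromosome 16, 33829665 to 33949338), had similar CPM means in the 3 genotypes. It was 226 ± 12 CPM in WT (SD, n = 4), 226 ± 18 CPM in FUN025/+ (n = 6) and 216 ± 4.7 CPM in FUN025/FUN025 (n = 5). The log2 difference of FUN025/FUN025 from WT was -0.06, with a 95% interval of -0.18 to 0.06 (adjusted p = 0.496, edgeR). The TPM ratio of Itgav to Itgb5 was 0.721 ± 0.067 in WT, 0.805 ± 0.057 in FUN025/+ and 0.613 ± 0.049 in FUN025/FUN025 libraries. The homozygous ratios (0.546 to 0.659) lay below all heterozygous ratios (0.698 to 0.849) and overlapped the WT ratios (0.631 to 0.783). Itgav shares 634 exon bases with an antisense gene, Gm13684, that had 0 to 25 counts in a library, and 7.86% of the 31-base stretches of Itgb5 occur in the pseudogene Gm38317, which had 30 to 88 counts.

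Alpha-v also pairs with other beta chains, and none of the 5 examined was called lower in any genotype comparison. Itgb1, which pairs with many alpha chains, rose by 0.22 log2 in FUN025/+ (adjusted p = 0.00883) and by 0.20 log2 in FUN025/FUN025 relative to WT (adjusted p = 0.0207, edgeR). Itgb3, Itgb6 and Itgb8 are shown although the rule for naming genes does not cover them, and were added after their values were seen. Itgb8 held 910 to 1153 CPM in WT, 1128 to 1451 CPM in FUN025/+ and 1084 to 1425 CPM in FUN025/FUN025 libraries, rising by 0.35 log2 (adjusted p = 0.0198) and by 0.32 log2 (adjusted p = 0.0370). Between the mutant genotypes, where Itgav fell most, all 5 differences were negative and none was called, at -0.23 log2 for Itgb3 (SE 0.118), -0.16 for Itgb6, -0.07 for Itgb5, -0.03 for Itgb8 and -0.02 for Itgb1. Itgb3, Itgb5 and Itgb6 passed in no comparison, with log2 differences of FUN025/FUN025 from WT of -0.15, -0.06 and -0.09.

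**Figure D3:**
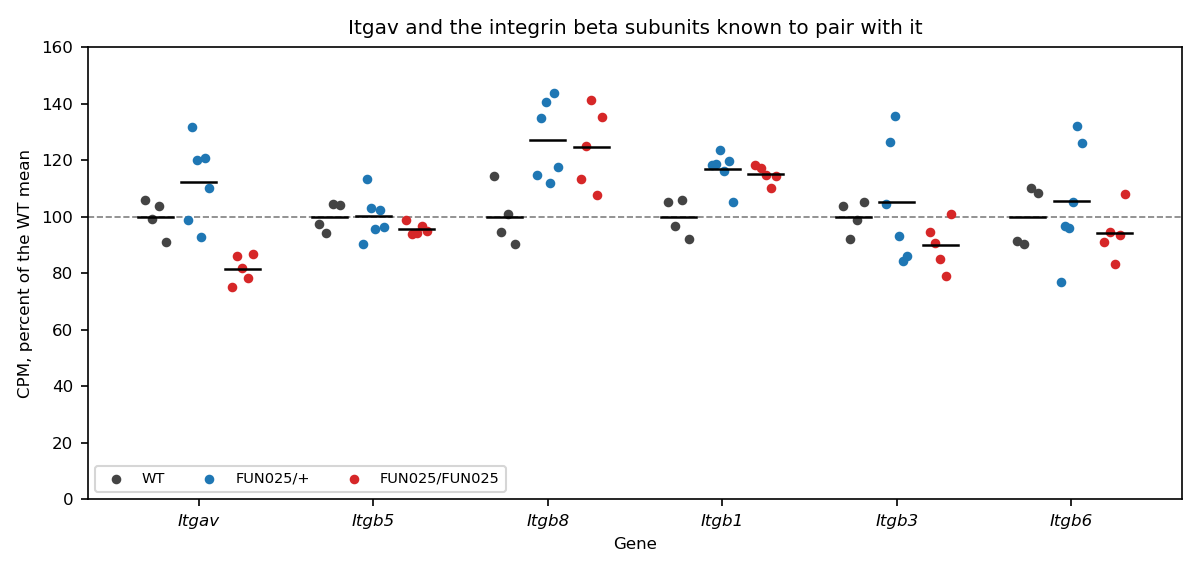
CPM as a percent of the WT mean (vertical axis, from 0) for Itgav and 5 integrin beta subunits, by genotype. Points are mice and lines are group means. All 5 FUN025/FUN025 mice lie below the WT mean for Itgav, and all 11 mutant mice lie above the WT mean for Itgb8 and Itgb1.

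Mfge8, the secreted ligand of that integrin (ENSMUSG00000030605, chromosome 7, 79133768 to 79149060), was the other member lower in homozygotes than in WT, by a small amount. WT libraries held 126, 131, 132 and 130 CPM. FUN025/FUN025 libraries held 122, 114, 114, 120 and 105 CPM. The 6 FUN025/+ libraries spanned 111 to 137 CPM with a median of 119 CPM, and 5 of the 6 were below the lowest WT library. Mfge8 fell by 0.17 log2 in FUN025/FUN025 relative to WT (SE 0.056, adjusted p = 0.0447, edgeR), a change of -11.3%. The difference of FUN025/+ from WT was -0.10 log2 (adjusted p = 0.217), and that of FUN025/FUN025 from FUN025/+ was -0.07 log2 (95% interval -0.18 to 0.04). Over the alleles the slope was -0.09 log2 per mutant allele (adjusted p = 0.0608 with limma, and 0.0423 and 0.0491 without FUN025/+ replicates 1 and 5), the lowest adjusted p of any member in that trend, which called 0 of 10 members and 8.27% of all genes. In the trend 3 members had an unadjusted p under 0.05, namely Mfge8, Itgav and Ptk2. The share of all genes at that unadjusted cut is not given here.

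The call on Mfge8 was close to the threshold, while its direction against WT held in every fit. It passed in 5 of 15 fits that left out 1 library, with log2 differences of -0.19 to -0.14 and adjusted p of 0.0207 to 0.121, and was lost without WT replicate 2, 3 or 4, without FUN025/+ replicate 2, 3 or 4, or without FUN025/FUN025 replicate 2, 3, 4 or 5. It was also lost in 6 other fits, in which the difference was -0.17 log2 without the filter on low counts (adjusted p = 0.0635), -0.18 with libraries thinned to the smallest total (adjusted p = 0.0571), -0.14 with a replicate block (adjusted p = 0.0838), -0.15 with protein-coding genes alone (adjusted p = 0.0838), -0.25 with the photoreceptor and muscle levels as covariates (adjusted p = 0.173) and -0.08 with the endothelial level as a covariate (adjusted p = 0.656). Without the pairs of libraries chosen by Ddx3y it passed in 2 of 9 fits, with differences of -0.17 to -0.14 log2 and adjusted p of 0.0433 to 0.156, and in 1 of the 9 the difference of FUN025/+ from WT passed (-0.14 log2, adjusted p = 0.0449). Mfge8 lies 9.99 Mb from Tmem135 on the same chromosome, and Myo7a lies 8.65 Mb from it.

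Mertk (ENSMUSG00000014361, chromosome 2, 128698956 to 128802894, plus strand) passed in no comparison. WT libraries held 166, 151, 154 and 146 CPM, and FUN025/FUN025 libraries held 131, 151, 163, 126 and 140 CPM. The 6 FUN025/+ libraries spanned 133 to 187 CPM with a median of 158 CPM. The genotypes overlapped, with 3 of 5 homozygous libraries below the lowest WT library. The log2 difference of FUN025/FUN025 from WT was -0.12 (95% interval -0.31 to 0.07, adjusted p = 0.413, edgeR), and that from FUN025/+ was -0.17 (unadjusted p = 0.0460, adjusted p = 0.780). These intervals leave room for a fall of Mertk of up to 0.31 log2 against WT.

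The ligands of MERTK and TYRO3 did not differ by genotype beyond their spread. Gas6, the most abundant member in TPM though not in CPM in WT or FUN025/+, was 448 ± 32 CPM in WT (SD, n = 4), 428 ± 49 CPM in FUN025/+ (n = 6) and 432 ± 28 CPM in FUN025/FUN025 (n = 5). Its log2 difference from WT was -0.07 in FUN025/+ and -0.05 in FUN025/FUN025, with intervals between -0.23 and 0.11. Pros1, which encodes the anticoagulant protein S, was 103 ± 11 CPM, 100 ± 3.8 CPM and 105 ± 5.0 CPM, with log2 differences from WT of -0.03 and 0.04 and intervals between -0.16 and 0.16. The lowest adjusted p of either ligand in these comparisons with WT was 0.596 (edgeR). The TPM ratio of Gas6 to Pros1 was 7.11 ± 1.27 in WT, 6.88 ± 1.02 in FUN025/+ and 6.61 ± 0.61 in FUN025/FUN025 libraries.

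Tyro3 was the more variable of the receptor kinases. WT libraries held 59.4, 43.9, 65.8 and 44.9 CPM, and FUN025/FUN025 libraries held 62.5, 69.1, 64.2, 50.4 and 67.0 CPM. The 6 FUN025/+ libraries spanned 50.3 to 71.1 CPM with a median of 56.9 CPM, so that all genotypes overlapped. The log2 difference from WT was 0.13 in FUN025/+ (95% interval -0.15 to 0.40, adjusted p = 0.553) and 0.23 in FUN025/FUN025 (95% interval -0.06 to 0.51, adjusted p = 0.290, edgeR). Among 14467 candidate genes the one with the pattern most like that of Tyro3 was Ddx3y, a Y-linked RNA helicase. In the 8 libraries with 107 to 133 CPM of Ddx3y, Tyro3 was 59.4 to 71.1 CPM. In the 7 libraries with under 2 CPM of Ddx3y, Tyro3 was 43.9 to 62.5 CPM. By the labelled genotypes both kinds of library occur in every group, and in each of the 3 groups every library high in Ddx3y held more Tyro3 than every library low in it. Over the whole Ddx3y range the fitted difference of Tyro3, with genotype in the same model, was 0.43 log2 (SE 0.060). This is a description without a test, as Ddx3y was picked for its likeness to Tyro3. With the Ddx3y level as a covariate, an alternative chosen after seeing the data, the difference of Tyro3 between FUN025/FUN025 and WT was 0.17 log2 (adjusted p = 0.0900).

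**Figure D4:**
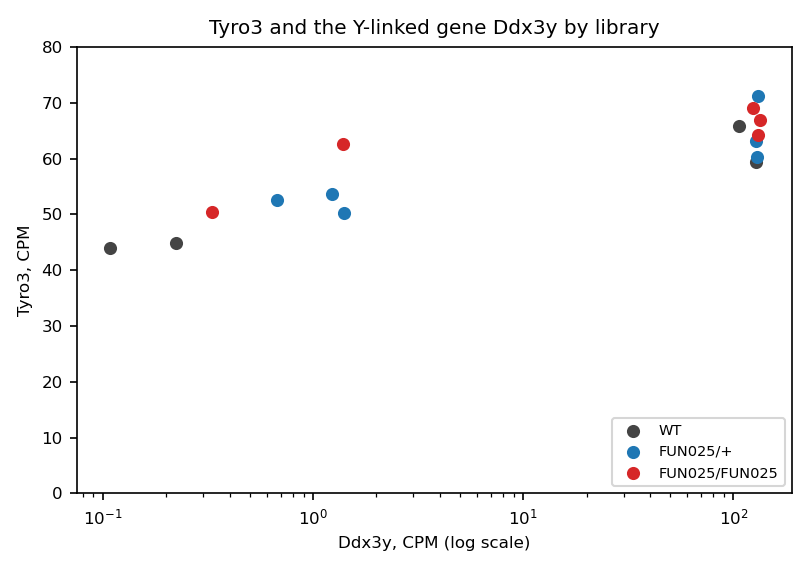
Tyro3 in CPM (vertical axis, from 0) against the Y-linked gene Ddx3y in CPM (horizontal axis, log scale), with 1 point per mouse coloured by genotype. The 8 mice with over 100 CPM of Ddx3y hold 59.4 to 71.1 CPM of Tyro3, and the 7 mice with under 2 CPM hold 43.9 to 62.5 CPM.

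The scavenger receptor, the kinase and the motor also passed in no comparison. Cd36, which binds oxidised phospholipids of outer segments and is also made by endothelium, macrophages and adipocytes, was 47.1 ± 11.5 CPM in WT (SD, n = 4), 51.3 ± 8.0 CPM in FUN025/+ (n = 6) and 52.2 ± 6.7 CPM in FUN025/FUN025 (n = 5). It had the widest intervals of the members, from -0.18 to 0.48 log2 for FUN025/FUN025 relative to WT (adjusted p = 0.559, edgeR). Myo7a, whose loss causes deafness and retinal degeneration in Usher syndrome, was 237 ± 10 CPM, 252 ± 17 CPM and 246 ± 10.5 CPM, and its difference of FUN025/FUN025 from WT was 0.05 log2 (95% interval -0.06 to 0.17, adjusted p = 0.562).

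Ptk2 was the member nearest to the threshold among those with positive differences. WT libraries held 83.0, 73.2, 74.2 and 73.9 CPM, and FUN025/FUN025 libraries held 85.3, 89.8, 87.8, 77.1 and 83.9 CPM. The 6 FUN025/+ libraries spanned 78.5 to 94.2 CPM with a median of 80.5 CPM. Every mutant library was above the 3 lower WT libraries, whereas WT replicate 1 lay among the mutants. The log2 difference from WT was 0.13 in FUN025/+ (95% interval 0.01 to 0.25, adjusted p = 0.154) and 0.16 in FUN025/FUN025 (95% interval 0.03 to 0.29, adjusted p = 0.0954, edgeR). Of the 15 fits that left out 1 library, 2 called this difference of FUN025/FUN025 from WT, at 0.20 log2 both without WT replicate 1 (adjusted p = 0.0427) and without FUN025/FUN025 replicate 4 (adjusted p = 0.0427). Over all 15 the values ran from 0.14 to 0.20 log2 and the adjusted p reached 0.196. With the RPE marker level as a covariate it was 0.17 log2 and passed, with an adjusted p of 0.0432. In FUN025/+ none of the 15 fits called Ptk2, the lowest adjusted p being 0.0684.

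The other genes of the pathway were described from 3 lists of 77 genes in all, each of which was tested. Relative to WT, 6 rose and 5 fell in FUN025/+ (14.3%, against 13.7% of all genes), and 2 rose and 5 fell in FUN025/FUN025 (9.09%, against 14%). These counts were unstable. The 11 calls in FUN025/+ became 3 without WT replicate 2 or 3 or FUN025/+ replicate 3, and 4 without FUN025/+ replicate 2 or 5. They became 5 without WT replicate 4 and 3 in a fit of those genotypes alone. The 7 in FUN025/FUN025 became 3 without WT replicate 2 or 3, and 13 with DESeq2, which called 16% of all genes. Counts over all genes in the fits without 1 library are not given here, so that instability particular to these genes was not shown. The median log2 differences of the 77 genes were 0.01 and -0.02. Between the mutant genotypes 0 of 77 were called by edgeR, beside 0.522% of all genes. An unadjusted p under 0.05 was reached by 7 of the 77 (9.09%) and by 6.23% of all genes, and DESeq2 called 1 of the 77 and 0.901% of all genes. Among the 19 other receptors and ligands, Itgb1 rose and Vtn fell in both mutant genotypes (10.5% of the list in each). Vtn, which encodes vitronectin, a matrix ligand of alpha-v integrins, was 59.7 ± 7.7 CPM in WT (SD, n = 4), 44.1 ± 4.6 CPM in FUN025/+ (n = 6) and 43.8 ± 7.9 CPM in FUN025/FUN025 (n = 5), and fell by 0.44 log2 (adjusted p = 0.0283) and 0.45 log2 (adjusted p = 0.0299). Among the 31 signalling and cytoskeletal genes, 3 rose and 2 fell in FUN025/+, and 1 rose and 4 fell in FUN025/FUN025 (16.1% in each, against 13.7% and 14% of all genes). Rhoa, a small GTPase that controls contractile actin, rose from 325 ± 17 CPM in WT to 406 ± 15 CPM in FUN025/+ and 392 ± 13 CPM in FUN025/FUN025, by 0.32 log2 (adjusted p = 2.11e-04) and 0.27 log2 (adjusted p = 0.00123). It was also the 1 gene of the 77 called off the midpoint in heterozygotes (1.3%, against 1.95% of all genes), at 0.19 log2 (adjusted p = 0.0139, edgeR). Gulp1, described below, lay as far off at 0.19 log2 but was not called (adjusted p = 0.0696).

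Vav2, which encodes a guanine nucleotide exchange factor, fell by 0.29 log2 in FUN025/+ and by 0.32 log2 in FUN025/FUN025 (adjusted p = 0.0294 and 0.0219, edgeR). In FUN025/FUN025 the Src family kinase gene Fyn fell by 0.34 log2 (adjusted p = 0.00684) and Mreg, the gene of melanoregulin, by 0.30 log2 (adjusted p = 0.0253). In FUN025/+ the engulfment adaptor gene Gulp1 rose by 0.22 log2 (adjusted p = 0.0383) and Tcirg1, a subunit gene of the vacuolar proton pump, fell by 0.21 log2 (adjusted p = 0.0406). Of the 27 genes of phagosome maturation, 2 rose and 2 fell in FUN025/+ (14.8%, against 13.7% of all genes). In FUN025/FUN025 edgeR called 0 of the 27 against 14% of all genes, and DESeq2 called 3 against 16% of all genes. There 6 had an unadjusted p under 0.05 (22.2%, against 28.6%) and 4 did not overlap WT (14.8%, against 14.8%). The endosomal GTPase gene Rab5b (0.17 log2, adjusted p = 0.0503) and the lysosomal membrane gene Lamp2 (0.16 log2, adjusted p = 0.0573) were nearest to the threshold. With the photoreceptor and muscle levels in the model 0 of the 77 were called in FUN025/+ and 1 in FUN025/FUN025, but calls fell over all genes too, to 1.03% and 2.7%. The 11 genes called in FUN025/+ without these levels all kept their direction, with a median size of 0.13 log2 in place of 0.21, and the median SE went from 0.053 to 0.11. The 7 called in FUN025/FUN025 likewise kept theirs, with a median size of 0.24 log2 in place of 0.30 and a median SE of 0.13 in place of 0.077. The part of those levels in the calls was not tested.

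Within genotypes some members varied together from mouse to mouse. Over the 15 libraries, with the genotype means removed, Pearson's r was 0.85 between Cd36 and Ptk2, 0.80 between Mertk and Itgav, 0.67 between Mertk and Ptk2 and 0.56 between Itgav and Itgb5, and -0.65 between the ligands Gas6 and Pros1. The same deviations of members were set against the mean log2 CPM of each marker list, also with the genotype means removed. Mertk and Itgav correlated with RPE markers at 0.69 and 0.66, and Gas6 at -0.74. Gas6 correlated with photoreceptor markers at 0.73, and Pros1 and Itgb5 with macrophage markers at 0.72. Values of 1 library share its scaling and its tissue mixture, and these correlations are descriptions without a test. Over all 15 libraries the genes with the patterns most like Itgav were Rtn3 and Atrnl1 (r = 0.92 for both), and those most like Mertk were Ak3 (0.93) and Plce1 (0.91). For the other members they were Rab37 for Tyro3 beside Ddx3y (0.87 for both), Lgalsl and Kif26b for Gas6 (0.81 for both), Was and Ube2l6 for Pros1 (0.86 for both), Ptprs (0.90) and Prr12 (0.89) for Mfge8, Gpr20 (0.81) and Cd55 (0.79) for Itgb5, Arhgef6 (0.87) and F13a1 (0.86) for Cd36, B3galt5 (0.93) and Ubr3 (0.89) for Ptk2, and Rb1 (0.92) and Srbd1 (0.88) for Myo7a.

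**Figure D5:**
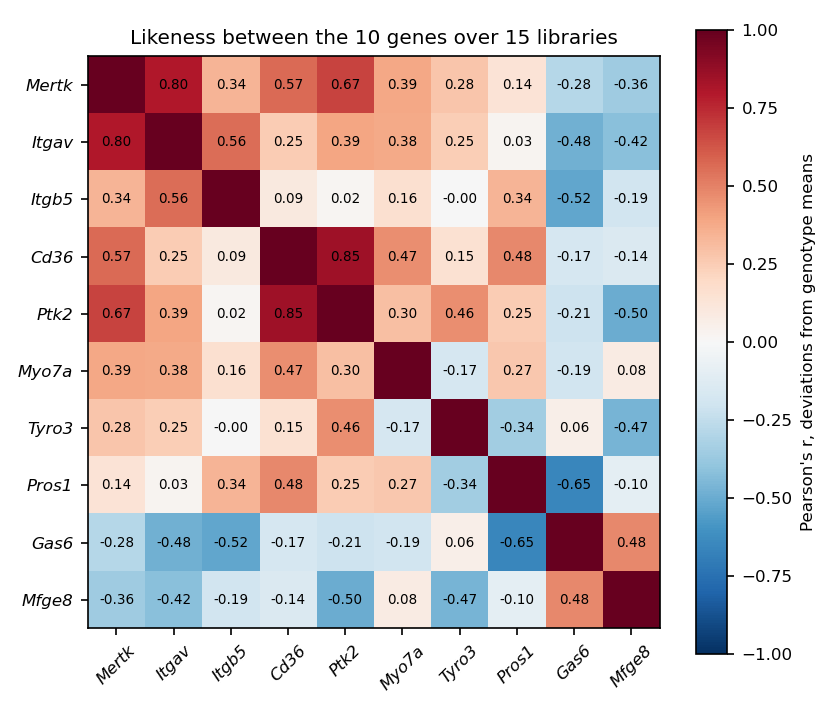
Pearson's r between the 10 genes over 15 libraries, computed on log2 CPM deviations from the genotype means, with red for positive and blue for negative values and the r printed in each cell. Cd36 with Ptk2 (0.85) and Mertk with Itgav (0.80) are the highest, and Gas6 with Pros1 (-0.65) is the lowest.

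Mertk and Itgav both lie on the plus strand of chromosome 2, and the 250 bases before their start sites are shown because these genes varied together. The sequences are from RefSeq on GRCm38.p6, read 5′ to 3′, with every CG pair, the site of cytosine methylation in mammals, in capitals. The windows are chr2:83724147-83724396 for Itgav and chr2:128698665-128698914 for Mertk.
Itgav: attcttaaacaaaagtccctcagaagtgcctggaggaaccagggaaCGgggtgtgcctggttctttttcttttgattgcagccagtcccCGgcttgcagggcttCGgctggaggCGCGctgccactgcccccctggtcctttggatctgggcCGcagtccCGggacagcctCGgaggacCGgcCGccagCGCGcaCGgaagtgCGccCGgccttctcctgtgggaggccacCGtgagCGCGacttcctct
Mertk: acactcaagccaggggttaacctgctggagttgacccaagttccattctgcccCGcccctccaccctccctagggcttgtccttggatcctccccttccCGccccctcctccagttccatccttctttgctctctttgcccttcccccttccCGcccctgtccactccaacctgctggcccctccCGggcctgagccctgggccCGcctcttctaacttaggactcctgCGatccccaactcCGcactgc
The Itgav window holds 18 CG pairs and is 64.4% G and C, and the Mertk window holds 7 and is 63.6%. Neither window holds CACGTG or CATGTG, core letters bound by the pigment cell factor MITF, or TAATCC, a core of OTX and CRX sites, on either strand. Over 32851 such windows of the table these letters occurred in 6.02%, 12.3% and 6.25%.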

How the data were processed

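The authors deposited whole-number read counts per Ensembl gene for each of 15 eyecup libraries, without normalization. Libraries were made from oligo(dT)-selected RNA with a NEBNext kit and sequenced as paired ends. The submitters' processing notes name FastQC 0.11.8, Trimmomatic 0.39, HISAT2 2.1.0, SAMtools and featureCounts 2.0.0 with GRCm38. The strand setting and the annotation used for counting are not given in the sources used here, so reads of overlapping antisense genes could not be told apart.

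Genotypes were taken from the sample titles. Symbols, positions and exon lengths came from GENCODE M21 on GRCm38. A variance filter following the study's methods dropped the bottom 15%, all of them genes without counts (18726 genes had zero variance), and edgeR's filterByExpr then left 18979 genes. All 15 libraries entered one fit (edgeR 4.0.16, TMM factors 0.976 to 1.02, robust quasi-likelihood test with 12 residual degrees of freedom before moderation), with Benjamini-Hochberg adjustment over all genes tested and a threshold of 0.05. The trend on mutant alleles used limma 3.58.1 on log2 CPM with a prior count of 2. Alternatives included DESeq2 1.42.0, other filters and scalings, covariates, a replicate block and leaving out each library. The fits were checked on simulated counts. R 4.3.3, Python 3.11.15 and matplotlib 3.10.9 were used.

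No pair of libraries of 1 genotype agreed within sampling noise (chi-square per gene 3.23 to 18.9). Floors in CPM cover counting error only. Named genes were the members, the up to 6 largest changes among called genes of the 3 lists of other phagocytosis genes, the 2 protein-coding genes of at least 1 CPM most correlated with each member, and Tmem135. Outside this rule, and after their values were seen, the integrin genes Itgb3, Itgb6 and Itgb8, the RPE markers Rpe65, Rgr, Rlbp1, Rdh5 and Ttr, Rab5b and Lamp2, the lipid genes Scd1, Fasn, Srebf1, Acaca and Srebf2, and Gm13684 and Gm38317, which share sequence with members, were also named. The members and lists were chosen with earlier results of these data known, and the lists came from general knowledge of phagocytosis.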

Additional observations from a re-analysis of the deposited data

Results flagged for a closer look

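Ptk2 in WT eyecups had 1 library far from the others of its group. WT replicate 1 held 83.0 CPM, whereas the other 3 WT libraries held 73.2 to 74.2 CPM, a gap of 0.896 of the range of the group, above Dixon's 95% critical value for 4 libraries. Chance gives such a gap in about 1 of 20 groups. The members were screened for such gaps in every genotype, and only this group was flagged. A single flag is thus no more than chance would give over so many groups. The same library also held the highest Cd36 level in WT, 63.7 CPM.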

How the results depend on the processing

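Leaving out each library in turn gave 0 members called in FUN025/+, 0 to 2 in FUN025/FUN025 against WT, 1 between the mutant genotypes, 0 to 1 off the midpoint and 0 to 1 in the allele trend. For the 77 other phagocytosis genes the counts were 3 to 13, 3 to 8 and 0 to 1 in the 3 genotype comparisons (11, 7 and 0 with all libraries), the lowest coming without WT replicate 2 or 3 and, for FUN025/+, also without FUN025/+ replicate 3. Of the 2 members called in FUN025/FUN025 against WT, 1 was called without the low-count filter, 1 with thinned libraries, and 0 with the photoreceptor and muscle covariates, with protein-coding genes alone or with the endothelial covariate. The endothelial covariate also left 0 between the mutant genotypes. Leaving out the 9 pairs of libraries chosen by Ddx3y gave 0 or 1 members in FUN025/+, 0 to 2 in FUN025/FUN025 against WT, 0 or 1 between the mutant genotypes and 0 or 1 off the midpoint, and Mfge8 between the mutant genotypes was 0.0043 in 1 of them. Of the other phagocytosis genes in FUN025/+, 7 were called without the low-count filter, 3 in a fit of those genotypes alone, 0 with the photoreceptor and muscle covariates and 6 with the endothelial one. In FUN025/FUN025 against WT these counts were 13 with DESeq2, which called 16% of all genes, and 14 with the RPE covariate. They were 1 with the photoreceptor and muscle covariates and 2 with the endothelial one. Between the mutant genotypes DESeq2 called 1, beside 0.901% of all genes, and the RPE covariate 3. For the RPE and endothelial covariates no share of all genes is given here, so that changes particular to these genes were not shown.

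Replicate numbers name different animals, and deviations of same-numbered libraries were not alike (r -0.385 to 0.133 over 13 pairs). With the replicate block 1 member was called in FUN025/FUN025 against WT, Itgav, with Mfge8 at an adjusted p of 0.0838, and 7 other phagocytosis genes were called in FUN025/+. The block changed the sign of Gas6 (-0.0030) and Cd36 (-0.020) between the mutant genotypes.

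Members that reversed were not called. With the RPE covariate the log2 differences were -0.013 for Mertk and -0.029 for Itgb5 in FUN025/+ against WT, and -0.065 for Gas6 and 0.0066 for Myo7a between the mutant genotypes. With the photoreceptor and muscle covariates they were -0.16 for Itgb5, 0.011 for Gas6 and -0.029 for Myo7a in FUN025/+, 0.011 for Mertk, 0.027 for Gas6 and -0.046 for Myo7a in FUN025/FUN025 against WT, and -0.0035 for Cd36 between the mutant genotypes. With the endothelial covariate they were 0.033 for Pros1 in FUN025/+, 0.029 for Mertk and 0.067 for Itgb5 in FUN025/FUN025 against WT, and -1.4e-04 for Gas6 and 0.037 for Myo7a between the mutant genotypes. Itgb5 in FUN025/+ was -0.0039 without the low-count filter and -0.0084 with thinned libraries. The range over left-out libraries included 0 for Cd36 (-0.019 to 0.10) and Gas6 (-0.018 to 0.063) between the mutant genotypes, Itgb5 (-0.037 to 0.030) and Pros1 (-0.088 to 0.036) in FUN025/+, Pros1 in FUN025/FUN025 (-0.012 to 0.10), the Gas6 slope (-0.041 to 0.0018), and the midpoint contrasts of Cd36 (-0.026 to 0.14), Itgb5 (-0.0051 to 0.061), Mfge8 (-0.055 to 0.0071) and Tyro3 (-0.051 to 0.071). The cause of these shifts was not tested. The Ddx3y covariate, the pairs chosen by Ddx3y, the endothelial covariate and the fit of protein-coding genes alone were chosen after seeing the data.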
